A study of Mus musculus with 22 samples.

Results

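Intestinal tissue of mice that received a pectin diet together with perfluorooctane sulfonate (PFOS, a persistent fluorinated surfactant) was compared with tissue of mice that received a cellulose diet and carried no PFOS in their sample titles. The comparison takes the 4 libraries titled Pectin_PFOS and the 4 libraries titled Control, 8 of the 22 libraries of the series, and these were chosen by title alone. All mice were wild-type C57BL/6 males, 7 weeks old at the start and fed for 7 weeks on irradiated diets with 8% fibre and with fat, protein and carbohydrate giving 35%, 20% and 45% of the calories. Pectin_PFOS animals had pectin as the fibre and PFOS in the drinking water at a daily 3 µg per kg; Control animals had cellulose as the fibre. A further pair of groups serve as references, Pectin (pectin, no PFOS in the title, 4 libraries) and PFOS (cellulose with PFOS, 4 libraries). A treatment field mentioning PFOS stands on every sample of the series, so the exposure was read from the titles. The gut segment is not given, and nothing states that each library came from a separate animal, so the p-values below measure the spread between libraries. That spread was estimated over all 22 libraries of the series, those of the inulin groups included.

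Pectin is a soluble plant fibre that gut bacteria ferment to short-chain fatty acids, whereas cellulose is hardly fermented in the mouse. The intestinal epithelium meets the microbiota with secreted lectins, oxidases, mucus and transported IgA, and interferons add a programme of antiviral and antigen-presenting genes. PFOS is not metabolised, binds serum albumin and fatty acid binding proteins, and activates the nuclear receptor PPAR-alpha in rodent liver.

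Values are CPM, read counts relative to the library size after TMM scaling, and a difference is the log2 fold change of Pectin_PFOS over Control with its standard error. A gene was called when the adjusted p of edgeR's quasi-likelihood test (Benjamini-Hochberg over the 15763 genes tested) was under 0.05. Of these genes 3812 (24.2%) were called, 1593 (10.1%) higher and 2219 (14.1%) lower in Pectin_PFOS, with a median log2 fold change of -0.07 over all genes. With only the Control and Pectin_PFOS libraries in the fit 1459 genes were called, 724 higher and 735 lower. The 4 values of one group all lay above or all below the 4 of the other in 3224 genes (20.5%), 1529 higher (9.7%) and 1695 lower (10.8%). The split between higher and lower calls depended on the scaling: 469 higher and 3584 lower with library totals alone (median of all genes -0.34), 1005 and 2775 with upper quartile scaling (median -0.20), and 446 and 2277 with limma on log2(TPM + 1). Changes below are relative to the TMM scale.

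Total counts ran from 17613322 to 18994398 in Control and from 19125652 to 20261370 in Pectin_PFOS. Reads of mitochondrially encoded genes made up 3.74% to 14.9% of the Control and 2.85% to 3.51% of the Pectin_PFOS libraries, without overlap, and the highest share was that of Control 4. Genes with at least 10 counts numbered 14346 to 14833 in Control and 12919 to 14384 in Pectin_PFOS, lowest in Pectin_PFOS 1. Control 4 and Pectin_PFOS 1 stood apart from the rest of their groups: 2179 genes were called without Control 4, 2407 without Pectin_PFOS 1 and 1318 without both. With the mitochondrial share as a covariate 719 genes were called, and its part in the results was not tested.

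Epithelial defence genes were higher in Pectin_PFOS. Of 22 tested members of the antimicrobial and epithelial defence list, 10 were higher and 1 (Itln1, a lectin, -1.22 ± 0.43, adjusted p = 0.0465) was lower, with a median log2 fold change of 1.49. Nos2, the inducible nitric oxide synthase (chromosome 11, 78920787 to 78960254 in the table's coordinates), had 47.8, 48.5, 47 and 184 CPM in Control 1 to 4 and 542, 999, 1800 and 691 CPM in Pectin_PFOS 1 to 4. The lowest Pectin_PFOS library stood above the highest Control library, and Control 4 was the high one among controls. The difference was 3.62 ± 0.57 (adjusted p = 0.000827). Duox2, the epithelial hydrogen peroxide producing oxidase (chromosome 2, 122279247 to 122298165), had 37.6, 83.5, 84 and 77.7 CPM in Control and 425, 720, 653 and 535 CPM in Pectin_PFOS. Its maturation factor Duoxa2 had 10, 37.1, 32.9 and 19 CPM against 160, 487, 473 and 241 CPM. Neither of these genes overlapped between the groups, with differences of 3.04 ± 0.47 (adjusted p = 0.000794) and 3.78 ± 0.71 (adjusted p = 0.00195).

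Lypd8, a GPI-anchored protein that keeps flagellated bacteria off the colonic epithelium, had 675, 369, 660 and 1240 CPM in Control and 4040, 4010, 2590 and 2390 CPM in Pectin_PFOS, a rise of 2.15 ± 0.38 (adjusted p = 0.00135). Ltf, the iron-binding lactoferrin, rose by 2.97 ± 0.45 (adjusted p = 0.000682) from a level under 1 CPM in every Control library. Fut2, the fucosyltransferase that decorates the epithelial surface, had 1.63, 3.77, 11.5 and 4.76 CPM against 48.3, 104, 23.4 and 39.2 CPM. B3gnt7, a glycosyltransferase that extends keratan sulfate and mucin-type chains, had 10, 9.13, 8.54 and 7.64 CPM against 72.7, 214, 103 and 86.4 CPM. All 4 genes were free of overlap between the groups, and the rises of the last pair were 3.31 ± 0.74 (adjusted p = 0.00512) and 3.75 ± 0.56 (adjusted p = 0.000762). The Reg3 lectins did not pass the test. Reg3b, a bactericidal C-type lectin, had 2550, 4030, 10800 and 31300 CPM in Control and 37000, 45700, 22100 and 25500 CPM in Pectin_PFOS, a difference of 1.42 ± 0.72 (adjusted p = 0.154). Control 4 lay inside the Pectin_PFOS range. Reg3g, its close paralogue, differed by 1.48 ± 0.79 (adjusted p = 0.175), and reads that the 2 copies share could be split between them.

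Transcripts of the IgA list rose in part, with 6 of 15 tested members called higher, none lower and a median of 0.77. Fold changes were above 0 in 9 members and below 0 in 6. Pigr, the receptor that carries IgA across the epithelium, had 457, 265, 1060 and 305 CPM in Control and 2350, 3040, 3110 and 3130 CPM in Pectin_PFOS, 2.48 ± 0.44 higher (adjusted p = 0.00137). Igha, the IgA constant region, had 173, 121, 167 and 121 CPM against 200, 1080, 1010 and 851 CPM, 2.43 ± 0.55 higher (adjusted p = 0.00504). Pectin_PFOS 1 stayed next to the controls for Igha, and the other 3 libraries were far above them. Of 110 tested immunoglobulin variable segments, which vary with the clones an animal holds, 22 were higher and 0 lower by the same edgeR test. Of the other plasma cell genes, Jchain differed by -0.75 and Mzb1 by -0.53 and neither passed, so 2 of 12 plasma cell markers were called (Igha and Igkc). The IgA list fell to 3 calls without Control 2 and without Pectin_PFOS 2.

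**Figure D1:**
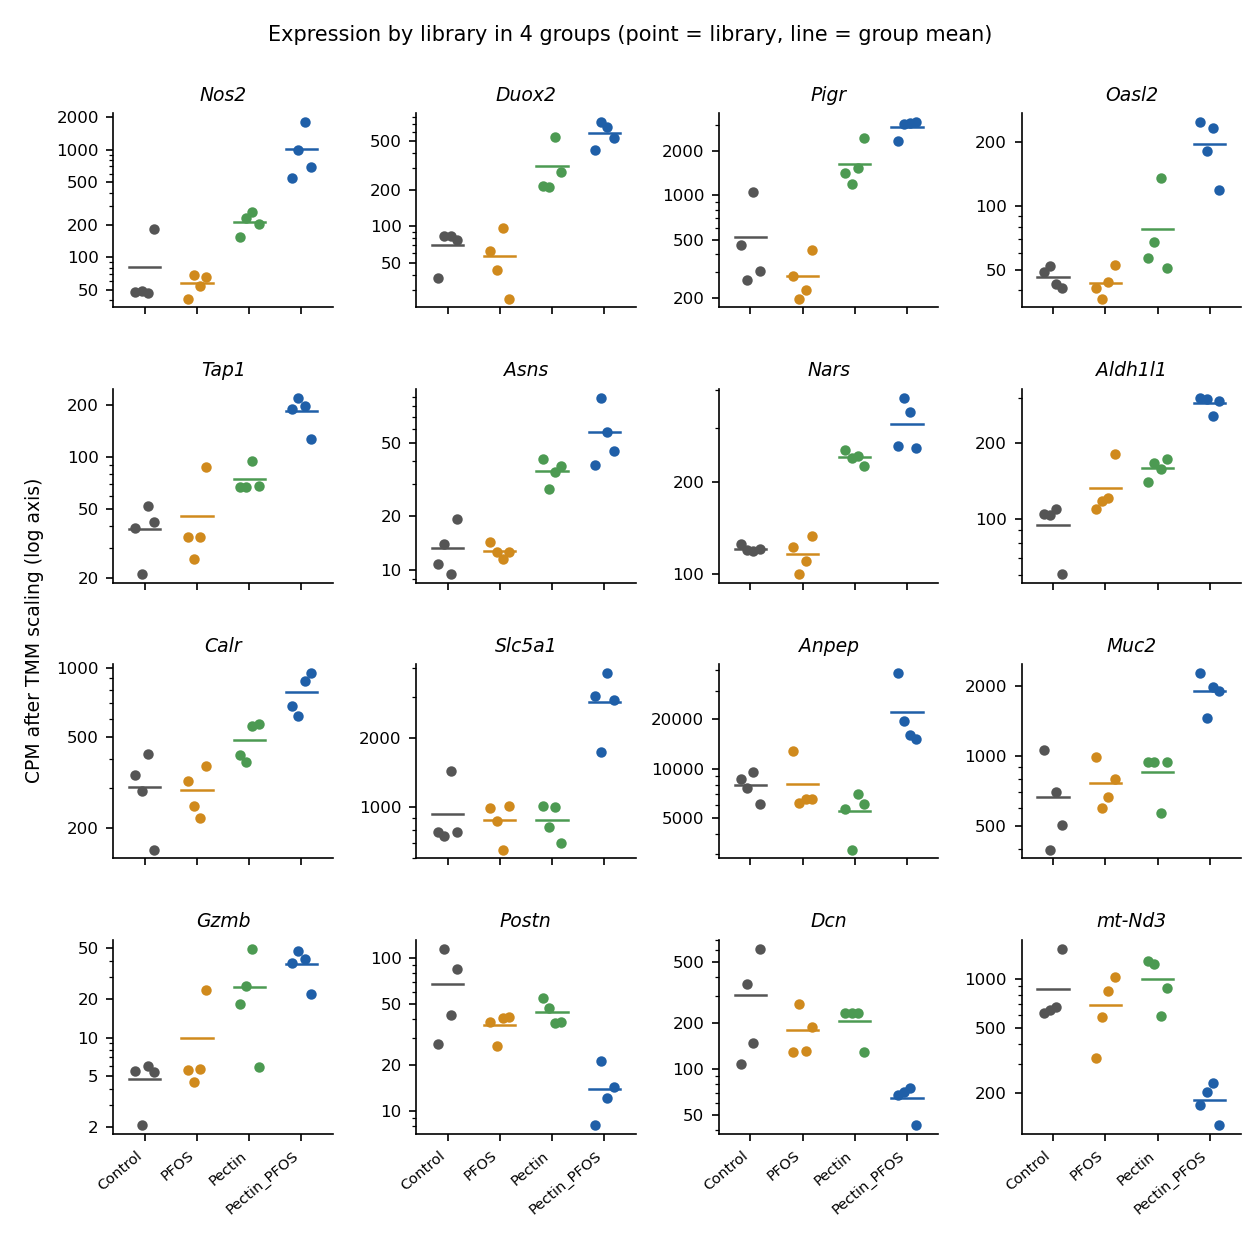
CPM after TMM scaling (log axis) of 16 genes in Control, PFOS, Pectin and Pectin_PFOS; each point is a library and each line a group mean of 4 libraries. Nos2, Slc5a1 and Anpep stand above the other 3 groups in Pectin_PFOS, whereas Nars and Asns are also raised in Pectin, and mt-Nd3, Postn and Dcn are lowest in Pectin_PFOS.

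Interferon-stimulated genes rose as a group. Of 30 tested members 20 were higher and none lower, 17 of the 30 were higher without overlap between the groups, and 29 had a fold change above 0, with a median of 1.26. Oasl2, an antiviral oligoadenylate synthetase-like protein, had 49, 52, 42.9 and 41 CPM in Control and 248, 182, 233 and 119 CPM in Pectin_PFOS (2.08 ± 0.31, adjusted p = 0.000559). Zbp1, a sensor of Z-form nucleic acids, had 5.02, 4.36, 9.64 and 11.1 CPM against 35.3, 113, 69.2 and 51.5 CPM (3.16 ± 0.55, adjusted p = 0.00122). Every Pectin_PFOS value of both genes was above every Control value. Parp14, a mono-ADP-ribosyltransferase, rose by 1.59 ± 0.25 (adjusted p = 0.000834), and Usp18, which removes ISG15 from proteins, by 2.59 ± 0.48 (adjusted p = 0.00167). Mx1 (-0.16), Irf7 (0.48) and Ifih1 (0.24) did not pass. Among the 15 tested GTPases that interferon-gamma induces, 3 were higher (Irgm1, Irgm2 and Igtp) and the median was 0.27. With the mitochondrial share as a covariate the calls of the interferon-stimulated list numbered 10.

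Antigen processing for MHC class I rose almost throughout: 13 of 14 tested members were higher, all 13 without overlap, with a median of 1.3, and Erap1, a trimming peptidase, differed by 0.04. Tap1, a subunit of the peptide transporter (chromosome 17, 34187553 to 34197225), had 38.9, 21.1, 52.4 and 42.1 CPM in Control and 190, 220, 197 and 127 CPM in Pectin_PFOS (2.25 ± 0.36, adjusted p = 0.000834). H2-D1, a class I heavy chain, had 940, 1150, 1020 and 717 CPM against 3010, 2570, 2570 and 1860 CPM (1.39 ± 0.24, adjusted p = 0.00123). Tapbp, the peptide-loading chaperone tapasin, had 215, 188, 296 and 125 CPM against 627, 418, 577 and 404 CPM (1.3 ± 0.24, adjusted p = 0.00188). None of these 3 genes overlapped between the groups. The immunoproteasome subunits Psmb8 (1.87 ± 0.47), Psmb9 (1.83 ± 0.44) and Psmb10 (1.31 ± 0.26) and the class I transactivator Nlrc5 (2.16 ± 0.61) were among the calls. Between 12 and 13 members were called with any 1 Control or Pectin_PFOS library left out, and 11 with the mitochondrial share as a covariate. Ubd, a ubiquitin-like modifier that inflammatory cytokines induce, had 4.23, 1.22, 10.4 and 6.48 CPM in Control and 55.9, 210, 259 and 94.2 CPM in Pectin_PFOS, 4.79 ± 1.03 higher (adjusted p = 0.00414).

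MHC class II was less settled. Cd74, the invariant chain, had 366, 90.3, 887 and 97.5 CPM in Control and 1900, 2490, 3180 and 2530 CPM in Pectin_PFOS, 2.81 ± 0.88 higher (adjusted p = 0.0269). The controls spread widely and still did not reach the Pectin_PFOS range. Of 10 tested members 5 were higher, but 1 was called without Control 2, Control 4 or Pectin_PFOS 3, 2 without Control 1, Pectin_PFOS 1 or Pectin_PFOS 2, 3 without Pectin_PFOS 4, 6 without Control 3 and 0 without Control 4 and Pectin_PFOS 1, and the call of Cd74 in edgeR was lost without Control 2, Control 4 or Pectin_PFOS 3. Of 15 NF-kappaB subunits and feedback genes 7 were higher and none lower, with a median of 0.66. Nfkb2, which encodes the p100 precursor of the non-canonical pathway, had 54.9, 51, 64.7 and 58.3 CPM against 96.6, 78.9, 139 and 81 CPM (0.79 ± 0.17, adjusted p = 0.00327), with no overlap. Nfkbia, the inhibitor IkB-alpha, rose by 1.05 ± 0.29 (adjusted p = 0.0144), while Rela, the main activating subunit, differed by 0.17. The calls of this list numbered 3 without Pectin_PFOS 1, 4 without Pectin_PFOS 2 or Pectin_PFOS 3 and 0 with the mitochondrial share as a covariate, where its median was 0.69. Of 18 tested chemokines and cytokines 4 were higher, Ccl5, Ccl25, Il1b and Il18, and Cxcl10 (0.04) and Tnf (0.56) did not pass.

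Promoter sequences of genes from these groups are shown because the members moved together; they run from 250 bases before to 50 after the gene start in RefSeq on GRCm38.p6, 5′ to 3′ on the gene's strand. Capitals mark the interferon-stimulated response element core (GAAA, NN for any bases, then GAAA) on either strand, with overlapping matches joined. Isg15, a ubiquitin-like modifier (log2 fold change 1.95 ± 0.44), lies on the minus strand at chr4:156200769-156201068 with 3 matches, the first starting 78 bases before the gene start. Ifit1, an antiviral RNA-binding protein (1.81 ± 0.45), lies on the plus strand at chr19:34640639-34640938 with 2 matches, and B2m, the class I light chain (1.22 ± 0.26), on the plus strand at chr2:122147437-122147736 with 1 match.
Isg15: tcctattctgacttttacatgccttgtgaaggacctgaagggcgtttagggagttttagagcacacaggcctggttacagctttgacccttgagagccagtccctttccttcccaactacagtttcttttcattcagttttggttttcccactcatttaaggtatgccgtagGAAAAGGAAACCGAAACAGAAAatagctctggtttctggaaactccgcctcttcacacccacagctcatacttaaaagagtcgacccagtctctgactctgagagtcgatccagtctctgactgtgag
Ifit1: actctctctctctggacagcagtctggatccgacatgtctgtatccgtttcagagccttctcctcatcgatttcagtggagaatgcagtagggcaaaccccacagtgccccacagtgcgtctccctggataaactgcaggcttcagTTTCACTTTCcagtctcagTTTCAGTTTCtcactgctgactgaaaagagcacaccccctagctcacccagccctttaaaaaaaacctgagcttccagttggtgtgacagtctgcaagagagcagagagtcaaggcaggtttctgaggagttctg
B2m: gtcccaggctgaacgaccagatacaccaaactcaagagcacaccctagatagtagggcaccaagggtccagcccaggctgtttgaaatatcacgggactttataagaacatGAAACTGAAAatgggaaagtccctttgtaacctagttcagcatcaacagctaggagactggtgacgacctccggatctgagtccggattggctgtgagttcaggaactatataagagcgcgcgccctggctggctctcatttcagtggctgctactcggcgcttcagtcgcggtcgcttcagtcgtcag
The core was present in 12 of 21 interferon-stimulated promoters found in the table (57.1%), in 3 of 11 MHC class I promoters (27.3%) and in 441 of 11180 promoters of all genes tested (3.94%). A match describes the letters in the window only.

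A group of amino acid supply and translation genes was higher. The aminoacyl-tRNA synthetases, which load amino acids onto tRNA, had 13 of 20 members higher and 1 lower (Dars, -0.86 ± 0.24, adjusted p = 0.0164), with a median of 0.73. Nars, the asparaginyl-tRNA synthetase, had 125, 120, 119 and 121 CPM in Control and 262, 377, 338 and 259 CPM in Pectin_PFOS (1.35 ± 0.17, adjusted p = 0.000188). The controls agreed to within 6 CPM and every Pectin_PFOS library was above 250 CPM. Mars, Gars and Qars, for methionine, glycine and glutamine, rose by 1.15 ± 0.19, 1.07 ± 0.17 and 0.75 ± 0.14. Iars (-0.03), Vars (0.01), Farsa (0.01) and Hars (0.07) stayed near 0 without passing. Between 12 and 14 members were called higher with any 1 Control or Pectin_PFOS library left out, 6 with library totals alone and 6 with the mitochondrial share as a covariate.

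Asns, asparagine synthetase (chromosome 6, 7675169 to 7693254), a well known target of the stress transcription factor ATF4, had 10.9, 13.9, 9.54 and 19.1 CPM in Control and 38.3, 89.3, 57.5 and 45.4 CPM in Pectin_PFOS (2.11 ± 0.26, adjusted p = 0.000188). Its groups did not overlap. The remainder of the ATF4 list moved in part: of 25 tested members 7 were higher and 2 lower, with a median of 0.35. Slc3a2, the heavy chain of amino acid exchangers, had 179, 172, 146 and 74.8 CPM against 359, 260, 397 and 351 CPM (1.26 ± 0.26, adjusted p = 0.00297). Slc7a1, a cationic amino acid transporter, rose by 1.11 ± 0.22 (adjusted p = 0.00224) and Atf5, a related transcription factor, by 1.09 ± 0.23 (adjusted p = 0.00319), although Pectin_PFOS 1 (17.2 CPM) lay just under Control 4 (17.4 CPM) for Atf5. Slc38a2, a neutral amino acid transporter (-0.97 ± 0.25, adjusted p = 0.0107), and Stc2, a secreted glycoprotein (-1.33 ± 0.48, adjusted p = 0.0494), fell. Atf4 itself differed by 0.04, Ddit3, which encodes the pro-apoptotic factor CHOP, by -0.22 (adjusted p = 0.567), and the pseudokinase Trib3 by 0.69 (adjusted p = 0.128).

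Of the 15 serine and one-carbon enzymes 4 were higher and none lower, with a median of 0.51. Aldh1l1, the cytosolic formyltetrahydrofolate dehydrogenase, had 105, 104, 109 and 60.5 CPM in Control and 301, 298, 256 and 291 CPM in Pectin_PFOS (1.59 ± 0.2, adjusted p = 0.000188). Mthfd2, the mitochondrial folate enzyme, had 3.77, 2.71, 4.84 and 4.76 CPM against 10.6, 23.2, 11.1 and 14.1 CPM (1.88 ± 0.27, adjusted p = 0.000543). Both were free of overlap. Phgdh, which starts serine synthesis, differed by -0.29 and Psat1, the next enzyme, by 0.93, and neither passed. Leaving out 1 library moved the count to 2 (Control 2 or Pectin_PFOS 3) or 7 (Control 1).

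A set of 3 promoters from this group carry the CCAAT/enhancer binding protein-ATF response element core TGATGNAA, in capitals on either strand, close to the gene start; they are given as for the interferon genes. Asns lies on the minus strand at chr6:7693160-7693459 (match 23 bases before the start), Jdp2, a repressor of the AP-1 family (1.08 ± 0.23), on the plus strand at chr12:85599166-85599465 (33 bases before), and Gars on the plus strand at chr6:55037751-55038050 (30 bases before).
Asns: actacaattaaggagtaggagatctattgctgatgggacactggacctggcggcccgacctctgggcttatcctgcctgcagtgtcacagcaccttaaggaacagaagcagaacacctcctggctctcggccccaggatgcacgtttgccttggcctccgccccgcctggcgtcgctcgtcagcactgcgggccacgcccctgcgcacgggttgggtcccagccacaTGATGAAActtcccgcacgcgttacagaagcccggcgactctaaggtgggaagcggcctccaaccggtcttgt
Jdp2: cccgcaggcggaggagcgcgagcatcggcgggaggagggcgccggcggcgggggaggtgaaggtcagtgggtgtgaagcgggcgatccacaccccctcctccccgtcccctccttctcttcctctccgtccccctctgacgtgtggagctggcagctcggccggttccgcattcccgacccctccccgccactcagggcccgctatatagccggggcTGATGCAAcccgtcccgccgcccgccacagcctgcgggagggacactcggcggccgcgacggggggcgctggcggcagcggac
Gars: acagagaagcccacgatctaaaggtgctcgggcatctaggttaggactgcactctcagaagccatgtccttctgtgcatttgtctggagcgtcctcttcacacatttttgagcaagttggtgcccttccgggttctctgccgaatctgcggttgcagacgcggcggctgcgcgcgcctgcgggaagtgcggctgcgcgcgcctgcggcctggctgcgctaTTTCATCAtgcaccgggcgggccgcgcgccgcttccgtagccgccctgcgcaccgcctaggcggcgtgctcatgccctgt
The core was found in 8 of 23 promoters of the ATF4 list (34.8%), 5 of 12 of the synthetases (41.7%), 1 of 12 of the serine and one-carbon list (8.33%), 1 of 19 of the endoplasmic reticulum list (5.26%) and 301 of 11180 of all genes tested (2.69%). These shares count members whether or not they were called. A match again describes the letters in the window only, and a part of ATF4 in the values was not tested.

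Endoplasmic reticulum chaperones, which fold secreted and membrane proteins, had 16 of 23 members higher and none lower, all 23 with a fold change above 0 and a median of 0.83. Calr, the lectin chaperone calreticulin, had 340, 291, 419 and 161 CPM in Control and 684, 619, 874 and 947 CPM in Pectin_PFOS (1.37 ± 0.27, adjusted p = 0.00222). Xbp1, the transcription factor of the unfolded protein response and of secretory cells, had 152, 144, 129 and 107 CPM against 265, 296, 280 and 251 CPM (1.04 ± 0.18, adjusted p = 0.00116). Neither overlapped. Manf (1.22 ± 0.24), Creld2 (1.41 ± 0.28), Hspa5, the main chaperone BiP (1.13 ± 0.24), and Hyou1 (1.49 ± 0.33) rose, while the sensors Ern1 (0.16) and Atf6 (0.52) did not pass. Between 14 and 17 members were called with any 1 Control or Pectin_PFOS library left out, 7 with library totals alone and 6 with the mitochondrial share as a covariate.

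**Figure D2:**
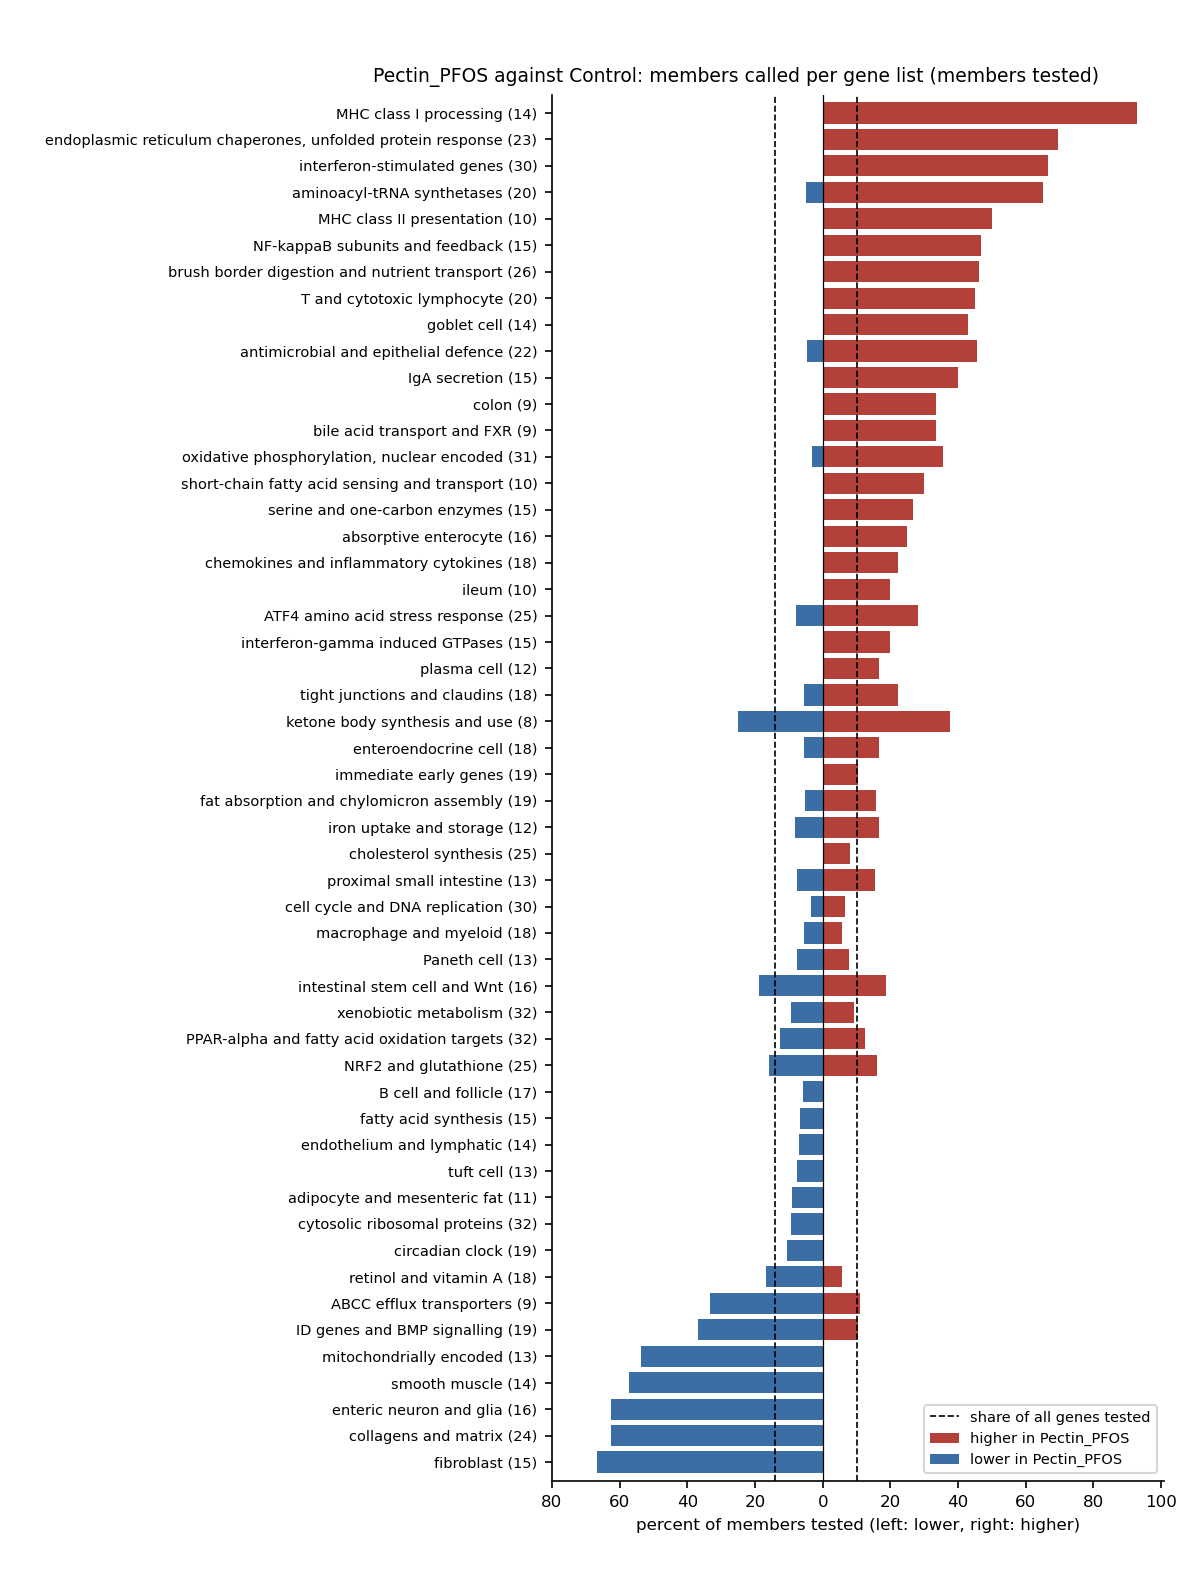
Members called higher (right) and lower (left) in Pectin_PFOS against Control as a percent of the members tested, for the gene lists with at least 8 members tested, with the number tested in brackets; dashed lines give the share of all genes tested, 10.1% higher and 14.1% lower. MHC class I processing and the endoplasmic reticulum list reach farthest to the right, and the fibroblast, collagen and enteric neuron lists farthest to the left.

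Digestive and transport genes of the enterocyte brush border were higher, 12 of 26 tested members with none lower, 24 with a fold change above 0 and a median of 0.76. Slc5a1, the sodium-glucose cotransporter (chromosome 5, 33104219 to 33162870), had 780, 754, 1430 and 778 CPM in Control and 3040, 1730, 3810 and 2910 CPM in Pectin_PFOS (1.62 ± 0.29, adjusted p = 0.00133). Anpep, aminopeptidase N, had 8670, 7590, 9620 and 6070 CPM against 38300, 19600, 16100 and 15300 CPM (1.48 ± 0.35, adjusted p = 0.00619). Mep1b, a subunit of the metalloprotease meprin, had 1070, 1020, 1200 and 728 CPM against 3930, 3070, 2510 and 2250 CPM (1.55 ± 0.25, adjusted p = 0.000934). The groups did not overlap for these 3 genes, and Pectin_PFOS 1 was the highest library for the 2 peptidases, while the call of Anpep was lost with the mitochondrial share as a covariate and without Control 4 and Pectin_PFOS 1. Ace, a dipeptidase, rose by 1.76 ± 0.31 (adjusted p = 0.00116), and Slc43a2, a transporter of large neutral amino acids outside the list, by 1.79 ± 0.32 (adjusted p = 0.00149). Sis, sucrase-isomaltase, differed by -0.17, and the lactase Lct by 4.42 without passing. The count was 7 without Control 2, 8 without Pectin_PFOS 1, 6 without Control 4 and Pectin_PFOS 1, 7 with library totals alone and 3 with the mitochondrial share as a covariate, where the median was 0.73. Enterocyte markers summed to 43600 to 70700 CPM in Control and 61100 to 114000 CPM in Pectin_PFOS, with 4 of 16 higher, and their part in these differences was not tested. That list includes Slc5a1, Anpep, Sis and Lct, and Anpep alone had a mean of 7990 CPM in Control and 22300 CPM in Pectin_PFOS. Summed markers of gut position did not overlap: 2120 to 4000 CPM against 4850 to 10600 CPM for proximal small intestine (2 of 13 higher, 1 lower), 4550 to 8000 CPM against 8900 to 13900 CPM for ileum (2 of 10 higher) and 2980 to 8720 CPM against 9120 to 14600 CPM for colon (3 of 9 higher). Over all genes tested 10.1% were called higher and 14.1% lower, and sums weigh abundant members most, such as Slc5a1 in the proximal list. The part of sampling position was not tested. In bulk tissue, fewer cells of a type and less RNA per cell cannot be told apart.

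Of 19 fat absorption genes 3 were higher and 1 lower with a median of 0.53, a share called no larger than the 24.2% of all genes tested. Mttp, which loads lipid onto chylomicrons, had 486, 559, 571 and 386 CPM in Control and 1600, 1080, 1860 and 1320 CPM in Pectin_PFOS (1.55 ± 0.29, adjusted p = 0.00188), without overlap. Cd36, a fatty acid translocase, had 7.44, 39.6, 8.84 and 313 CPM against 6.98, 4.68, 8.79 and 16.3 CPM (-3.32 ± 0.93, adjusted p = 0.0164). The groups overlapped, Control 4 was far above the other controls, and the call was lost without Control 4 (-1.01) and without Pectin_PFOS 1 (-3.21). Adipocyte markers, which include no Cd36, summed to 368 to 2540 CPM in Control and 480 to 798 CPM in Pectin_PFOS (1 of 11 lower, median -2.03), and their part in the Cd36 value was not tested. A total of 3 of 9 bile acid transport genes were higher: Fabp6, the ileal bile acid binding protein, had 2130, 2230, 2090 and 1430 CPM against 5060, 2820, 3450 and 4130 CPM (0.97 ± 0.29, adjusted p = 0.0192), and Slc51a and Vdr were the others. No member of the bile acid list was called by edgeR without Control 4 or without Pectin_PFOS 1. Slc11a2, the divalent metal transporter of iron uptake, rose by 1.25 ± 0.26 (adjusted p = 0.00274), and Slc9a3, the apical sodium-proton exchanger, from 1.72, 2.44, 1.35 and 2.6 CPM to 8.37, 24.2, 26.2 and 21.1 CPM (3.3 ± 0.54, adjusted p = 0.000964).

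Targets of PPAR-alpha did not move as a group, with 4 of 32 higher, 4 lower and a median of 0.04. Pdk4, which restrains pyruvate oxidation, had 25.7, 48.6, 22.5 and 43.4 CPM in Control and 23.9, 6.15, 6.88 and 8.09 CPM in Pectin_PFOS (-1.64 ± 0.46, adjusted p = 0.0159). Pectin_PFOS 1 alone lay within the Control range for Pdk4, and the call was lost without Pectin_PFOS 4. Cpt1a, which admits fatty acids to mitochondria, differed by -0.2 ± 0.28 (adjusted p = 0.637). Angptl4, an inhibitor of lipoprotein lipase, differed by 0.21 ± 0.42 (adjusted p = 0.752) with 121, 73.3, 115 and 64.2 CPM against 226, 59, 64.6 and 81.3 CPM, and turned to -0.45 without Pectin_PFOS 1 and to -0.17 with library totals alone. With library totals alone 0 members of the list were higher and 7 lower, and the higher calls in edgeR numbered 1 without Control 4, Pectin_PFOS 1 or Pectin_PFOS 3, 2 without Control 3 and 7 without Pectin_PFOS 4. Cholesterol synthesis genes had a fold change above 0 in 22 of 25 members with a median of 0.46, but 2 were called, among them Ebp, a sterol isomerase (0.56 ± 0.2, adjusted p = 0.0471), and edgeR called none of the list without Control 4, Pectin_PFOS 1, Control 2 or Pectin_PFOS 2.

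Nuclear genes of oxidative phosphorylation and the mitochondrial genome went different ways. Sdha, the catalytic subunit of complex II, had 229, 228, 201 and 190 CPM in Control and 385, 360, 378 and 348 CPM in Pectin_PFOS (0.79 ± 0.14, adjusted p = 0.00115), and 11 of 31 nuclear members were higher and 1 lower. That count was 1 higher and 6 lower with library totals alone, 6 higher without Pectin_PFOS 1, 7 without Control 4 or Pectin_PFOS 3, 3 without Control 4 and Pectin_PFOS 1 and 1 with the mitochondrial share as a covariate. Of 13 mitochondrially encoded genes 7 were lower and none higher, all 13 with a fold change below 0 and a median of -1.15. mt-Nd3, a complex I subunit, had 618, 647, 668 and 1530 CPM against 168, 202, 228 and 126 CPM (-2.26 ± 0.4, adjusted p = 0.0012). Control 4 was far above the other controls and the groups did not overlap. A total of 2 members were called without Control 4, 4 without Pectin_PFOS 1, 13 without Control 3, 1 without Control 4 and Pectin_PFOS 1, and 2 with GC content and gene length taken out, where the median was -0.44.

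Matrix and mesenchymal genes fell. Of 24 collagens and matrix genes 15 were lower and none higher, every one with a fold change below 0 and a median of -1.25. Postn, the matricellular protein periostin (chromosome 3, 54361109 to 54391037), had 27.5, 115, 42.1 and 85.1 CPM in Control and 8.04, 21.2, 12.1 and 14.2 CPM in Pectin_PFOS (-2.28 ± 0.35, adjusted p = 0.000794). Col3a1, a fibrillar collagen, had 78.8, 204, 69.5 and 204 CPM against 15.7, 46.2, 47.8 and 51.4 CPM (-1.79 ± 0.38, adjusted p = 0.00352). For both genes Control 2 and Control 4 were the high controls and Pectin_PFOS 1 was the lowest library, without overlap. Bmp1, the procollagen C-proteinase, had 110, 115, 82 and 67.3 CPM against 48.7, 22, 22.2 and 32.2 CPM (-1.58 ± 0.32, adjusted p = 0.00277), and its call held in each of the 33 other settings tried. Lox and Loxl1, which cross-link collagen, fell by 2.29 ± 0.59 and 1.86 ± 0.41 on the log2 scale. The calls of this list numbered 9 without Control 4, 7 without Control 4 and Pectin_PFOS 1 and 4 with the mitochondrial share as a covariate.

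Fibroblast markers had 10 of 15 members lower and none higher, with a median of -1.45, and summed to 816 to 2080 CPM in Control and 622 to 720 CPM in Pectin_PFOS. Dcn, the proteoglycan decorin, had 109, 361, 148 and 614 CPM against 68.1, 71.3, 75.6 and 43.1 CPM (-2.25 ± 0.42, adjusted p = 0.0018). Smooth muscle markers had 8 of 14 lower with a median of -1.47 and summed to 2600 to 11400 CPM against 1190 to 3030 CPM. Acta2, smooth muscle actin, had 380, 1840, 969 and 707 CPM against 172, 406, 315 and 326 CPM (-1.67 ± 0.46, adjusted p = 0.0145) and overlapped between the groups, since Pectin_PFOS 2 exceeded Control 1, and its call was lost without Control 2 (-1.17) and without Pectin_PFOS 1 (-1.48). Enteric neuron and glia markers had 10 of 16 lower with a median of -1.43 and summed to 43.9 to 107 CPM against 40.4 to 46.6 CPM. Stmn2, a neuronal tubulin-binding protein, had 3.44, 9.24, 9.09 and 8.97 CPM against 1.25, 2.34, 2.42 and 2.82 CPM (-1.79 ± 0.39, adjusted p = 0.0041), without overlap. The muscle calls numbered 2 without Control 2, 3 without Pectin_PFOS 1 and 0 without Control 4 and Pectin_PFOS 1, and the neuron and glia calls 4 without Pectin_PFOS 1, 5 without Control 2, Control 4 or Pectin_PFOS 2, and 1 without Control 4 and Pectin_PFOS 1. Scores (mean log2 CPM of the members, centred over the libraries) of the fibroblast and collagen lists were highest in Control 2 and Control 4. Control 3 had the lowest collagen score of the controls (-0.28) but scores of 0.3 for smooth muscle and 0.58 for neuron and glia. The fibroblast list itself holds the collagens Col1a1, Col1a2 and Col3a1, and the part of tissue layers in the matrix result was not tested.

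BMP signalling, which shapes crypts and villi, held both directions: 2 of 19 members were higher and 7 lower. Id1, a direct BMP target, had 71, 94.4, 47.3 and 82.5 CPM in Control and 126, 172, 194 and 209 CPM in Pectin_PFOS (1.25 ± 0.24, adjusted p = 0.00195), and its call held in all settings tried. The BMP antagonist Grem1, made by subepithelial stroma, had 60.4, 201, 97.6 and 147 CPM against 17.5, 53.9, 42.3 and 40.9 CPM (-1.71 ± 0.4, adjusted p = 0.00585). Neither gene overlapped between the groups. Nog, the antagonist noggin, fell as well (-1.64 ± 0.5). The lower calls numbered 4 without Control 4 and 1 without Control 4 and Pectin_PFOS 1.

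Among epithelial lineages the goblet cell list had 6 of 14 members higher and none lower, with a median of 0.62, and summed to 7540 to 9960 CPM in Control and 14000 to 17200 CPM in Pectin_PFOS. Muc2, the main secreted gel-forming mucin, had 1060, 396, 698 and 505 CPM against 2270, 1460, 1980 and 1910 CPM (1.52 ± 0.35, adjusted p = 0.00499). Fcgbp, a mucus-binding protein, had 2740, 2070, 2450 and 2380 CPM against 5340 to 6290 CPM (1.29 ± 0.23, adjusted p = 0.00124), but limma on log2(TPM + 1) did not call it (highest adjusted p over the settings 0.586). Both genes were free of overlap. Tff3 (0.04) and Zg16 (0.22), also goblet products, did not pass. With the mitochondrial share as a covariate 1 goblet member was called. Enteroendocrine markers had 3 of 18 higher and 1 lower. Cck, cholecystokinin, had 1.58, 0.956, 1.1 and 0.997 CPM against 3.23, 3.69, 6.37 and 4.91 CPM (1.96 ± 0.31, adjusted p = 0.000827), and Pyy, peptide YY of L cells, rose by 1.08 ± 0.26 (adjusted p = 0.00695). Of the remaining epithelial lists, Paneth cell markers had 1 of 13 higher and 1 lower, and stem cell markers 3 of 16 higher and 3 lower. Tuft cell markers had 0 higher and 1 of 13 lower by edgeR, with 10 of 13 fold changes below 0 and a median of -0.22.

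Lymphocyte markers differed by type. T and cytotoxic lymphocyte genes had 9 of 20 members higher and none lower with a median of 1.32. They summed to 28.3 to 228 CPM in Control and 273 to 487 CPM in Pectin_PFOS, and reached 448 CPM in Pectin and 344 CPM in PFOS. The list scores overlapped, with Control 3 at 0.66 and Pectin_PFOS at 0.25 to 1.06. Gzmb, the cytotoxic protease granzyme B, had 5.49, 2.07, 6.04 and 5.43 CPM against 38.2, 47.8, 41 and 22.1 CPM (2.97 ± 0.62, adjusted p = 0.00336). Cd8a, the co-receptor of cytotoxic T cells, had 5.35, 2.02, 8.49 and 2.93 CPM against 18, 29.2, 32.9 and 24.9 CPM (2.48 ± 0.53, adjusted p = 0.00368), and Itgae, the integrin of intraepithelial lymphocytes, rose by 2.36 ± 0.47 (adjusted p = 0.00254). These genes were free of overlap, whereas Cd4 (0.43), Trbc1 (-0.44) and Trbc2 (-0.11) did not pass. The count was 6 without Control 2, 14 without Control 3 and 3 with the mitochondrial share as a covariate. B cell and follicle markers had a median of -2.75, yet 1 of 17 was called. The Control libraries spread from 17.6 to 1250 CPM in the summed B cell markers and overlapped the Pectin_PFOS range of 37.4 to 103 CPM. The B cell calls numbered 13 without Control 2 and 0 without Control 3, and DESeq2 called 9.

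**Figure D3:**
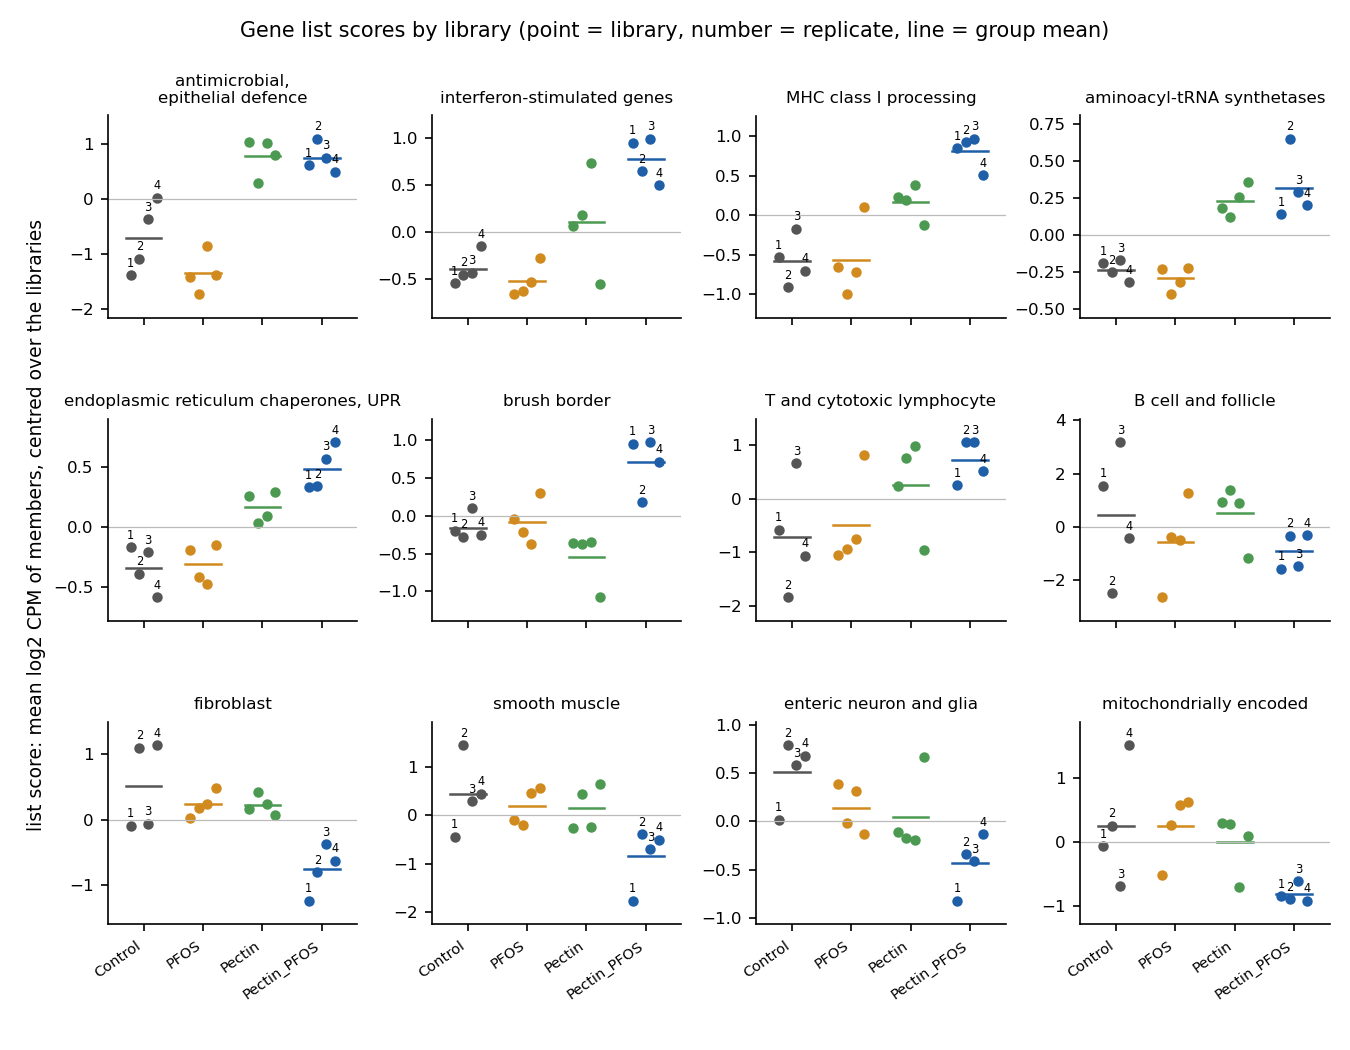
List scores (mean log2 CPM of the members, centred over the libraries) of 12 gene lists by library in 4 groups; numbers are replicates and lines group means. Scores of the interferon-stimulated genes reach 0.5 to 0.99 in Pectin_PFOS and -0.54 to -0.15 in Control, while the B cell scores of Control run from -2.49 to 3.18.

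Other single genes had large differences. Plet1, an epithelial surface protein, had 0.651, 0.744, 0.499 and 0.886 CPM in Control and 2.11, 87.2, 5.07 and 9.5 CPM in Pectin_PFOS (5.22 ± 1.1, adjusted p = 0.00363). Pectin_PFOS 2 was far above the others. Ceacam10, a carcinoembryonic antigen family member, rose from 0.372 to 0.72 CPM to 4.48 to 9.01 CPM (3.6 ± 0.48, adjusted p = 0.000405). Bhmt, betaine-homocysteine methyltransferase, rose by 3.79 ± 0.8 (adjusted p = 0.00369). Gata4, a transcription factor of proximal small intestine and a member of that marker list, had 0.512, 1.22, 0.699 and 0.83 CPM against 2.44, 1.7, 52.1 and 25.1 CPM (4.64 ± 1.37, adjusted p = 0.0212). Its call was lost without Control 4 and without Pectin_PFOS 3. Among the lower genes, Hnmt, histamine N-methyltransferase, had 1.58, 8.6, 2.95 and 7.97 CPM against 0.461, 0.644, 0.789 and 0.992 CPM (-2.85 ± 0.43, adjusted p = 0.000662). Cpn1, the catalytic subunit of carboxypeptidase N, had 9.67, 19.5, 7.24 and 5.48 CPM against 1.71, 1.7, 1.47 and 1.2 CPM (-2.78 ± 0.63, adjusted p = 0.00485). Rps14, a ribosomal protein, had 1510, 1740, 2390 and 2120 CPM against 610, 827, 809 and 688 CPM (-1.4 ± 0.28, adjusted p = 0.00271), while 3 of 32 cytosolic ribosomal protein genes were lower and the list median was -0.08. Several of the largest decreases belonged to small non-coding RNA genes such as Rpph1, the RNA of RNase P, and Rnu3b1, a U3 small nucleolar RNA that shares its reads with a near-identical copy.

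Pectin alone and PFOS alone gave fewer calls against the same Control libraries, 313 genes (1.99%) and 0 genes (0%) in edgeR, the latter with 842 genes at an unadjusted p under 0.05. These comparisons share the Control libraries, so their values are set side by side and no overlap is read from them. Pectin_PFOS itself was therefore tested against each. Against Pectin 3277 genes (20.8%) were called, 1790 higher (11.4%) and 1487 lower (9.43%), and against PFOS 2526 (16%), 1213 higher (7.7%) and 1313 lower (8.33%). The counts against Pectin ran from 1360 without Pectin_PFOS 1 to 3846, and those against PFOS from 1265 without PFOS 3 to 2897. With the mitochondrial share as a covariate they were 258 and 306.

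Brush border genes differed from pectin alone: 19 of 26 were higher in Pectin_PFOS than in Pectin (median 1.28), and 12 were higher than in PFOS (median 0.7). Pectin 4 had the lowest brush border score of its group (-1.08, others -0.37 to -0.35), and 15 were called without it; with the mitochondrial share as a covariate 5 were called against Pectin and 2 against PFOS. Enterocyte markers had 5 of 16 higher against Pectin (median 0.74) and 5 against PFOS (median 0.66). That list shares Slc5a1, Anpep, Sis and Lct with the genes described above for the brush border. Ileum markers had 5 of 10 and 1 of 10 higher (medians 0.96 and 0.47). The ileum count against Pectin was 2 without Pectin 2. Against PFOS it was 0 without PFOS 1, PFOS 3, PFOS 4 or any 1 Pectin_PFOS library. Enterocyte markers summed to 19000 to 75200 CPM in Pectin and 37800 to 73000 CPM in PFOS, ileum markers to 5730 to 9920 CPM and 5950 to 9110 CPM, and their part in the brush border values was not tested. Slc5a1 had 1010, 825, 998 and 699 CPM in Pectin and 989, 868, 655 and 1010 CPM in PFOS. Both groups stayed below the lowest Pectin_PFOS library (1730 CPM), and the differences were 1.7 ± 0.29 against each (adjusted p = 0.00249 and 0.00162). Anpep differed from Pectin by 2.02 ± 0.36 (adjusted p = 0.00286) and Slc43a2 by 2.04 ± 0.33 (adjusted p = 0.00216). Slc3a2 differed from Pectin by 1.38 ± 0.26 (adjusted p = 0.00377), Tapbp by 1.54 ± 0.25 (adjusted p = 0.00216) and Nfkb2 by 1.09 ± 0.17 (adjusted p = 0.00216). For these 3 genes Pectin against Control gave -0.13, -0.25 and -0.31, none of them called. Against Pectin 7 of 30 interferon-stimulated genes, 6 of 14 MHC class I genes and 7 of 15 NF-kappaB genes were higher and none lower. The interferon count was 14 without Pectin 3 and 5 without Pectin 1, Pectin 2, Pectin 4 or Pectin_PFOS 1. The NF-kappaB count was 1 without Pectin 1, 2 without Pectin 2, Pectin 4, Pectin_PFOS 1 or Pectin_PFOS 3, and 3 without Pectin_PFOS 2. With the mitochondrial share as a covariate the 3 counts were 1, 2 and 1.

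Against Pectin 2 of 22 antimicrobial and epithelial defence genes were higher and 2 lower (median 0.02). The synthetases had 1 of 20 higher and 1 lower (median 0.13), and the IgA genes 0 of 15 higher and 1 lower (median -1.14). Endoplasmic reticulum genes had 5 of 23 higher and 0 lower (median 0.43). MHC class II (median 0.98) and T and cytotoxic lymphocyte genes (median 0.58) had 0 calls in edgeR. Of all genes tested 11.4% were higher and 9.43% lower. Several genes did not pass the test against pectin alone. Igha had 1990, 817, 989 and 2850 CPM in Pectin and differed from it by -1.08 ± 0.53 (adjusted p = 0.143). Zbp1 had 65.4, 72.9, 90.7 and 29 CPM in Pectin and differed by 0.06 ± 0.5 (adjusted p = 0.941). Asns differed by 0.7 ± 0.25 (adjusted p = 0.0515), Nars by 0.36 ± 0.16 (adjusted p = 0.115) and Duox2 by 0.9 ± 0.44 (adjusted p = 0.141). None of these 5 differences passed, and a missed threshold does not show equal levels. All 5 genes were called in Pectin against Control as well, at 3.51, 3.1, 1.41, 0.99 and 2.15. Bmp1 had 18.9 to 21.5 CPM in Pectin, -2.23 ± 0.33 from Control (adjusted p = 0.00594), and Pectin_PFOS differed from Pectin by 0.65 ± 0.32 (adjusted p = 0.145). Id1 did not pass against either group, -0.22 from Pectin (adjusted p = 0.521) and 0.24 from PFOS (adjusted p = 0.511). Nos2 stood above both, with 154, 234, 262 and 206 CPM in Pectin and 41.4, 68.6, 54.7 and 65.6 CPM in PFOS, 2.24 ± 0.54 (adjusted p = 0.0102) and 4.13 ± 0.58 (adjusted p = 0.00064) below the Pectin_PFOS level.

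Collagens were lower than in either reference, 10 of 24 against Pectin (median -0.91) and 20 against PFOS (median -1.33), and Postn differed by -1.67 ± 0.35 (adjusted p = 0.00541) and -1.39 ± 0.34 (adjusted p = 0.0118). The collagen calls numbered 6 without Pectin 1, Pectin 2 or Pectin_PFOS 1 in the comparison with Pectin, and 7 without Pectin_PFOS 1 and 8 without PFOS 3 or Pectin_PFOS 2 in that with PFOS. With the mitochondrial share as a covariate they numbered 0 in edgeR against Pectin and 1 against PFOS. Fibroblast markers were lower as well, 7 of 15 against Pectin (median -1.07, 4 without Pectin_PFOS 1) and 7 of 15 against PFOS (median -1.13, 2 without Pectin_PFOS 1). With the mitochondrial share as a covariate the fibroblast calls in edgeR were 0 against Pectin and 0 against PFOS (medians -0.86 and -0.78). That list itself holds the collagens Col1a1, Col1a2 and Col3a1. The fibroblast sums were 862 to 1180 CPM in Pectin and 965 to 1200 CPM in PFOS, above the 622 to 720 CPM of Pectin_PFOS. Smooth muscle markers had 0 of 14 calls against Pectin in edgeR with a median of -0.99 and 2 lower against PFOS. The part of these cell types in the collagen values was not tested. Pdk4 was lower than in both Pectin and PFOS, by -1.43 ± 0.46 (adjusted p = 0.0347) and -2.06 ± 0.47 (adjusted p = 0.00791).

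**Figure D4:**
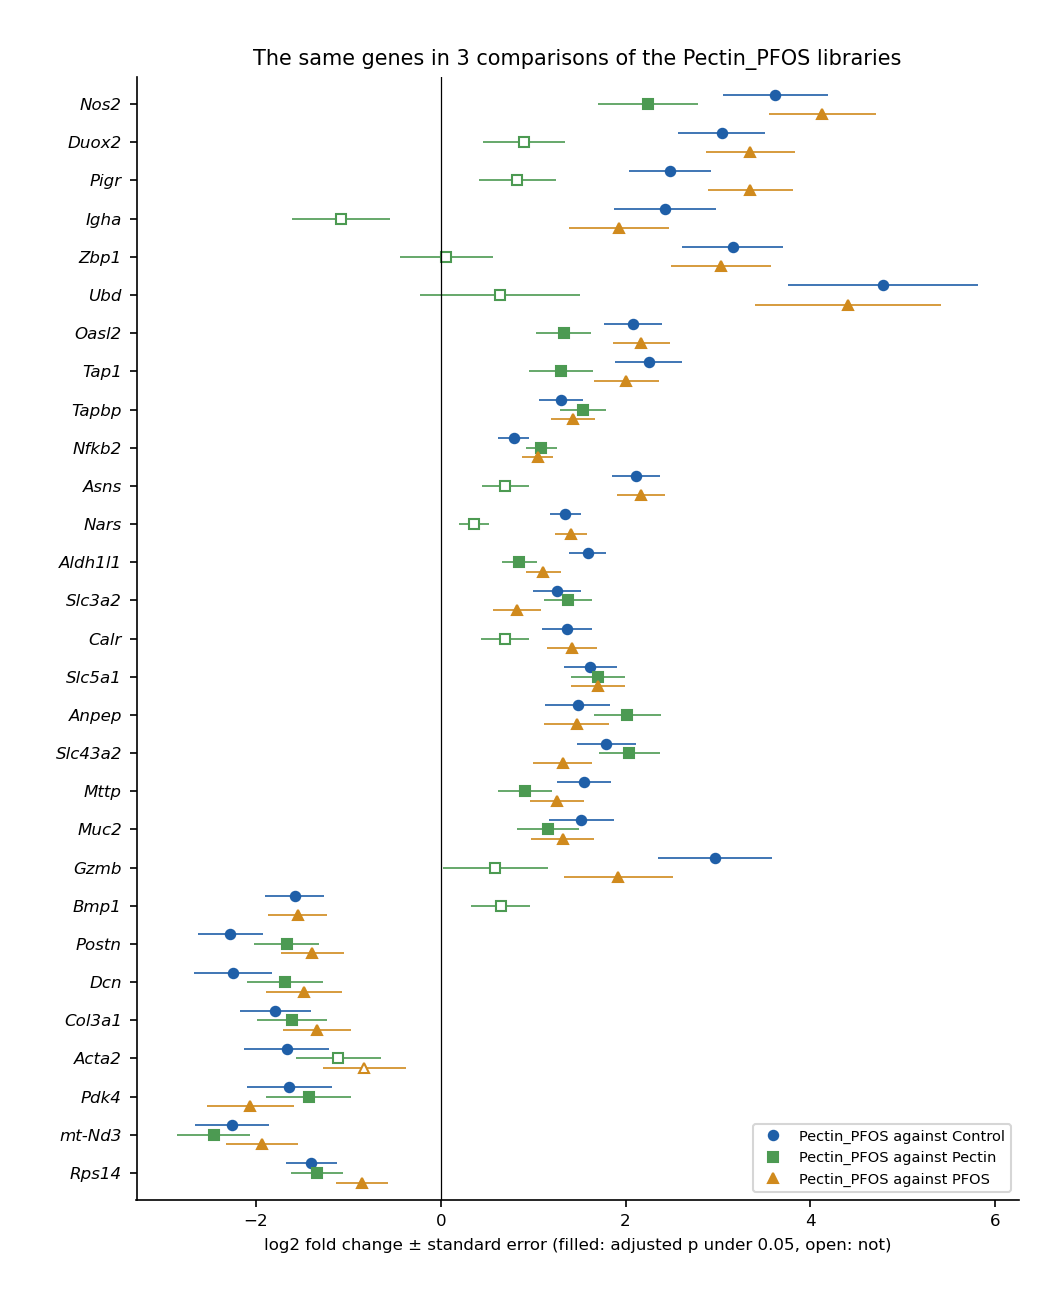
Log2 fold change ± standard error of 29 genes in Pectin_PFOS against Control, Pectin and PFOS (4 libraries a group); filled symbols mark an adjusted p under 0.05. Slc5a1 lies at 1.62, 1.7 and 1.7, whereas Zbp1 lies at 3.16 and 3.03 against Control and PFOS and at 0.06 against Pectin.

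Whether the combined difference departs from the sum of the single ones was tested with the interaction of PFOS and pectin. It gave 0 calls (0%) in edgeR, with 1953 genes at an unadjusted p under 0.05, a smallest adjusted p of 0.159 and 119 calls in DESeq2. The 5 genes with the smallest p were Nfkb2, Entpd2, Pklr, Tapbp and Chst8. Nfkb2 had an interaction of 1.35 ± 0.23 (adjusted p = 0.159), that is, higher in Pectin_PFOS than the 2 single differences add up to. Entpd2, an ectonucleotidase, gave 1.29 ± 0.26, the pyruvate kinase Pklr 1.55 ± 0.31, Tapbp 1.67 ± 0.34 and the sulfotransferase Chst8 2.15 ± 0.44, each with an adjusted p of 0.26. For the transporter Slc5a1 the interaction was 1.78 ± 0.4 with the same adjusted p of 0.26. For Zbp1 it was -0.07 ± 0.72 (adjusted p = 0.981).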

How the data were processed

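Stranded RNA-seq libraries of mouse intestinal tissue were counted per gene, and the authors deposited one table of expected counts and one of TPM for all 22 libraries. HISAT, Bowtie2 and GRCm39 are named in the submitters' processing notes, without roles or versions; the table's gene coordinates, however, were identical to those of GENCODE M21 (GRCm38) for 38860 of 46005 shared genes, so coordinates are given as in the table. No source used here names the counting program or annotation.

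Expected counts were rounded to whole numbers and fitted in R 4.3.3 with edgeR 4.0.16 (TMM scaling, filterByExpr, robust quasi-likelihood F test, 1 mean per group over all 22 libraries), which left 15763 genes; standard errors were obtained from each fold change and its F statistic. The biological coefficient of variation was 31.9%. Total counts of the 8 libraries, 17613322 to 20261370, set the precision of low genes. Closest of all replicate pairs, Pectin_PFOS 3 and Pectin_PFOS 4 still differed far beyond counting noise (chi-square per degree of freedom 29.5), so no library was merged.

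Alternatives were DESeq2 1.42.0, limma 3.58.1 on the deposited TPM as log2(TPM + 1) or log2(TPM + 0.1), other scalings and filters, a replicate block, the mitochondrial share as a covariate and each library left out; leaving out Control 4 and Pectin_PFOS 1 together, list counts without each library and the GC content and length offsets were added after seeing the data. Gene lists (55, with 987 of 990 entries in the table) and the genes compared were chosen with earlier results of these data known. Named genes were up to 15 higher and 15 lower with the largest called differences without overlap at a mean of at least 1 CPM (no predicted models or variable segments), up to 4 called members per list by smallest p, Cpt1a, Pdk4, Angptl4 and Id1, and up to 5 each way for the other comparisons, narrowed here to those the results turn on; other list members named, among them Reg3b, Tapbp, Slc43a2 and uncalled members, were chosen after their values were seen. Some list members that were counted are not reported here by name. No list was tested as a set. Motifs were searched in RefSeq promoters on both strands.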

Additional observations from a re-analysis of the deposited data

Results flagged for a closer look

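Of 278 groups of 4 values examined in these 8 libraries, 19 held 1 library whose gap to the rest, divided by the whole range, was above Dixon's 95% critical value, and chance gives about 5% of groups. Control 2 had 14346 genes with at least 10 counts and the other controls 14789 to 14833.

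Control 4 held 4 of the gene values: Nos2 at 184 CPM (others 47 to 48.5), Aldh1l1 at 60.5 CPM (104 to 109), mt-Nd3 at 1530 CPM (618 to 668) and Cd36 at 313 CPM (7.44 to 39.6). Control 1 was low for Duox2 at 37.6 CPM (77.7 to 84) and Stmn2 at 3.44 CPM (8.97 to 9.24) and high for Abcc3, an organic anion exporter, at 41.3 CPM (17.1 to 20.8). Control 2 was low for Gzmb at 2.07 CPM (5.43 to 6.04), and Control 3 was high for Slc5a1 at 1430 CPM (754 to 780).

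Pectin_PFOS 1 stood apart for Pigr at 2350 CPM (3040 to 3130), Col3a1 at 15.7 CPM (46.2 to 51.4), Pdk4 at 23.9 CPM (6.15 to 8.09) and Angptl4 at 226 CPM (59 to 81.3). Its list scores stood apart for the cell cycle at -0.54 (0.42 to 0.44), enteroendocrine cells at -0.04 (0.30 to 0.34) and the ileum at 0.79 (0.27 to 0.33). Pectin_PFOS 2 was high for Plet1 at 87.2 CPM (2.11 to 9.5). Control 2 had a proximal small intestine score of 0.06 against -0.38 to -0.31 in the other controls.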

How the results depend on the processing

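For Pectin_PFOS against Control the called genes numbered 2308 with limma on log2(TPM + 1) without a filter, 1459 with only the groups compared, 719 with the mitochondrial share as a covariate, 1318 without Control 4 and Pectin_PFOS 1, and 2179 (without Control 4) to 4245 (without Control 1) with 1 library left out. Against Pectin they numbered 1335 and 1593 with limma on log2(TPM + 1) and log2(TPM + 0.1), 722 without the filter, 258 with the mitochondrial covariate, and 1360 to 3846 with 1 library left out (1567 without Pectin 1, 1686 without Pectin 2). Against PFOS they numbered 3917 and 3918 with the TPM settings, 3829 with library totals alone, 306 with the mitochondrial covariate, and 1265 to 2897 with 1 library left out (1538 without PFOS 2, 1283 without Pectin_PFOS 1, 1631 without Pectin_PFOS 2). The interaction gave 119 calls in DESeq2 and 0 to 4 with 1 library left out (4 without Control 4, 2 without Pectin_PFOS 2). The cause of these shifts was not tested, and the left-out fits also held fewer samples. The other 106 alternative counts were within 1.5 times the main count.

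Replicate numbers did not pair the samples: same-numbered Control and Pectin_PFOS libraries deviated together with correlations of -0.05, 0.06, 0.13 and 0.07. A replicate block gave 3745 calls against Control, and 1724 (against PFOS 572) when only the groups compared entered the fit.

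Cpt1a ran from -0.54 to 0.06 with 1 library left out (0.06 without Control 1). Angptl4 turned to -0.15 in the 3 TPM settings, -0.17 with library totals alone, -0.46 with the mitochondrial covariate, -0.45 without Pectin_PFOS 1 (-0.45 to 0.42 over the libraries left out), -0.59 without Control 4 and Pectin_PFOS 1, and -0.01 with GC content and length offsets. Over all named genes and settings 6259 values kept direction and side of the threshold, 843 lost the call, 7 gained it and 9 changed sign. In 5 equal bins by GC content the GC-poorest genes had a median log2 fold change of -0.34 and the other bins -0.07 to 0.05.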
